A study of Mus musculus with 64 samples.

Results

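Tumors of the 2 Cre-negative PyMT mice of the study were compared: mouse G184, in which both Abi1 alleles were floxed (fl/fl, Cre-; tumors 6 and 9), over mouse G144, in which 1 allele was floxed (fl/wt, Cre-; tumors 6 and 8). Members were all samples whose title names one of these mice, which gave 32 of the 64 lane libraries and 4 of the 8 tumors. All of these mice were females that expressed the polyoma middle T antigen, an oncoprotein that drives tumors of the mammary epithelium, and neither control carried the MMTV-driven Cre recombinase that deletes floxed Abi1. The other 4 tumors came from mouse G174 (fl/fl, Cre+; tumors 1 and 6) and mouse G164 (fl/wt, Cre+; tumors 3 and 6). Total RNA without ribosomal RNA was read from each primary tumor, and the counts of its 8 lane libraries were summed.

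Each genotype was a single mouse, so the p-values below measure only the spread between tumors of a mouse. The study's pathology records list G184 as older than G144, and the Cre line was of mixed strain while the PyMT and floxed lines were C57BL6. Genotype, animal, age and inherited background therefore cannot be told apart. The control tumors held 69264893 and 66117015 counts in genes in G184, against 66713353 and 56779412 in G144. Reads in no gene on the counted strand made up 34.4% and 32.2% of all reads in G184 tumors 6 and 9, against 28.3% and 28.7% in G144 tumors 6 and 8. Reads mapped to several places made up 10.5% and 10.6% in G184 and 12.8% and 14.2% in G144. The part of these shares in the results below was not tested.

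Between the control mice Abi1 did not differ beyond the spread of their tumors, while many other genes did. Abi1, whose product is an adaptor subunit of the WAVE complex that drives branched actin assembly, lies on the minus strand of chromosome 2 in GRCm38, from 22940073 to 23040241. It was measured at 114 and 122 CPM (counts per 1000000 counts in genes, scaled by TMM) in G184 tumors 6 and 9, against 111 and 130 CPM in G144 tumors 6 and 8. The groups overlapped, with a log2 fold change of -0.03 (standard error 0.16, adjusted p = 0.918 from the quasi-likelihood test of edgeR). Of 22187 genes tested, 1368 were higher in G184 and 1419 lower at an adjusted p under 0.05, which is 12.6% of the genes tested, 6.17% in the upward and 6.4% in the downward direction. The median log2 fold change was 1.27 among the genes called higher and -0.77 among those called lower. Among the calls, 268 genes were higher and 132 lower by 2 or more on the log2 scale.

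The tumors of the 2 mice did not overlap in 13616 genes, or 61.4% of those tested. Over 15637 genes with a mean of at least 1 CPM, the median absolute difference on the log2(CPM + 0.5) scale was 0.17 between the tumors of G184 and 0.17 between those of G144. Between the mice it was 0.32 and 0.26 for tumor 6 of G184 against tumors 6 and 8 of G144, and 0.38 and 0.33 for tumor 9 of G184. Every pair of tumors from different mice thus differed more than either pair from the same mouse. Leaving out 1 tumor, which leaves its mouse with a single tumor that is assumed to vary like the others, changed the number of calls. Without tumor 6 of G144, 125 genes were higher and 80 lower. Without tumor 8 of G144 there were 489 and 539, without tumor 9 of G184 there were 272 and 90, and without tumor 6 of G184 there were 996 and 822.

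**Figure D1:**
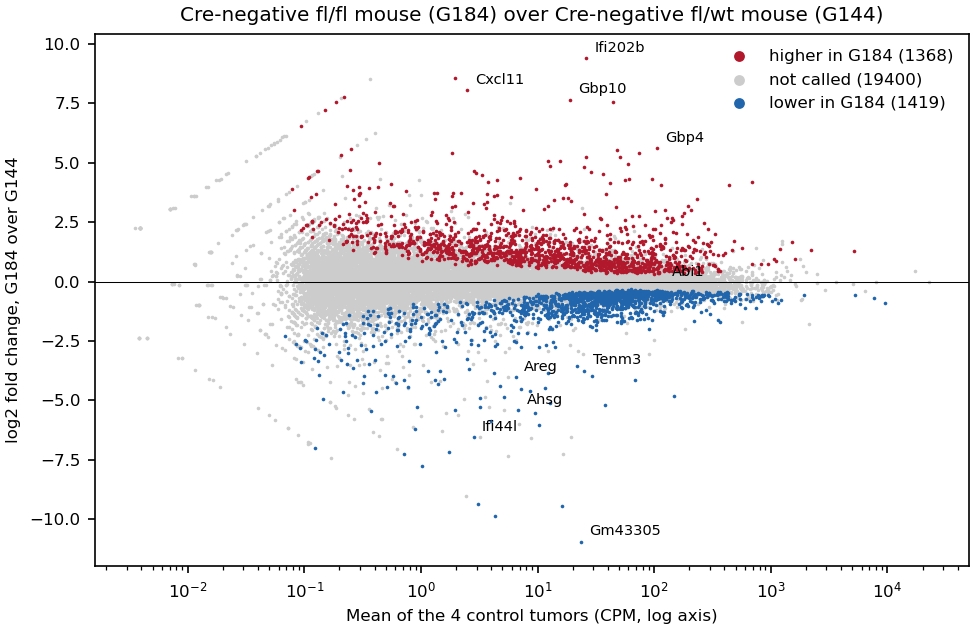
The log2 fold change of G184 over G144 (vertical axis) against the mean of the 4 control tumors in CPM (horizontal axis, logarithmic) for 22187 genes, with 1368 genes called higher in red, 1419 called lower in blue and the rest in grey. Ifi202b has the highest point, at a log2 fold change of 9.40, and Abi1 lies at -0.03.

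Genes that interferons induce led the increases, and of the 12 protein-coding genes with the largest ones at a mean of at least 5 CPM 8 were on the 3 lists of interferon genes described next. Type I interferons signal to genes whose products block viral replication, such as the OAS, IFIT and MX families. Interferon-gamma, secreted mainly by T cells and NK cells, signals to IRF1, to the guanylate-binding proteins and immunity-related GTPases that attack pathogen vacuoles, to chemokines that attract T cells, and to antigen presentation by MHC molecules.

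Of 20 interferon-gamma inducible GTPase genes, 19 were higher in G184 and none lower (median log2 fold change 4.17, against 0.01 over all genes tested). Gbp4 had 239 and 177 CPM in G184 tumors 6 and 9, against 4.01 and 4.57 CPM in G144 tumors 6 and 8. This was a 48.6-fold difference (log2 5.60, standard error 0.36, adjusted p = 0.00101), and the lowest G184 tumor stood far above both G144 tumors. Gbp5 had 104 and 85.4 CPM in G184, against 1.57 and 2.53 CPM in G144 (log2 5.53, standard error 0.37, adjusted p = 0.00114). Gbp10 had 47.1 and 28.1 CPM in G184, against 0.0914 and 0.287 CPM in G144 (log2 7.66, standard error 0.78, adjusted p = 0.00362). Reads of Gbp10, Gbp6 and their neighbours on chromosome 5, like those of the tandem copies Tgtp1 and Tgtp2 on chromosome 11, come from closely similar genes, and their division among the copies is uncertain.

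All 9 immunity-related GTPase genes were higher, with log2 fold changes from 2.47 to 5.41. Tgtp1 had 185 and 106 CPM in G184, against 2.35 and 4.54 CPM in G144 (log2 5.41, standard error 0.61, adjusted p = 0.00521). Iigp1, added here after its values were seen because it was the most abundant of them, had 1402 and 1196 CPM in G184, against 54.0 and 87.7 CPM in G144. The exception among the guanylate-binding proteins was Gbp2b, also singled out after its values were seen, with 13.3 and 4.44 CPM in G184 and 17.8 and 21.8 CPM in G144 (log2 -1.15, standard error 0.46, adjusted p = 0.137). The GTPases were called in the same number, 19, without any 1 tumor except tumor 6 of G144, without which 12 were called.

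Of 12 other genes of the interferon-gamma response, 11 were higher. Cxcl9, a chemokine for CXCR3 on activated T cells, had 129 and 69.5 CPM in G184, against 2.12 and 3.17 CPM in G144 (log2 5.23, standard error 0.49, adjusted p = 0.00279). Cxcl10, a ligand of the same receptor, had 36.2 and 28.9 CPM against 1.77 and 2.12 CPM (log2 4.07, standard error 0.32, adjusted p = 0.00193). The remaining ligand, Cxcl11, was listed with 437 and 236 counts in G184 and with 1 count in each tumor of G144. The annotation calls it a polymorphic pseudogene, since C57BL/6 carries a disrupted copy. Batf2, a transcription factor of activated macrophages, had 19.8 and 16.6 CPM in G184 and 0.853 and 1.58 CPM in G144 (log2 3.91, standard error 0.34, adjusted p = 0.00243). Ido1, which breaks down tryptophan, was the member that did not pass (11.8 and 7.80 CPM in G184, 5.35 and 3.998 CPM in G144, adjusted p = 0.0943).

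All 39 genes of the type I interferon list changed, 38 of them upward. Oas3, which makes the second messenger of the RNase L pathway, had 56.5 and 87.6 CPM in G184, against 5.06 and 6.15 CPM in G144 (log2 3.69, standard error 0.37, adjusted p = 0.0036). Ifit3 had 226 and 411 CPM in G184, against 34.8 and 50.4 CPM in G144 (log2 2.90, standard error 0.42, adjusted p = 0.0105). Trim30a had 146 and 212 CPM in G184, against 19.6 and 25.8 CPM in G144 (log2 2.98, standard error 0.41, adjusted p = 0.00938). In these genes tumor 9 of G184 was the higher of its mouse, whereas Gbp4, Gbp5, Gbp10, Tgtp1 and Cxcl9 were higher in tumor 6. The number of list members called higher was 6 without tumor 6 of G144 and 21 without tumor 9 of G184.

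A single gene of the list went the other way. Ifi44l had 0.0847 and 0.0311 CPM in G184, against 4.89 and 6.33 CPM in G144 (log2 -6.53, standard error 0.46, adjusted p = 0.00127). Its homolog Ifi44, named after its values were seen, had 186 and 278 CPM in G184 and 69.4 and 76.0 CPM in G144 (log2 1.67, standard error 0.28, adjusted p = 0.0163). Ifi44l was at 10.1 and 6.79 CPM in G174 and 27.2 and 19.6 CPM in G164, so that the G184 tumors alone had almost none of it.

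**Figure D2:**
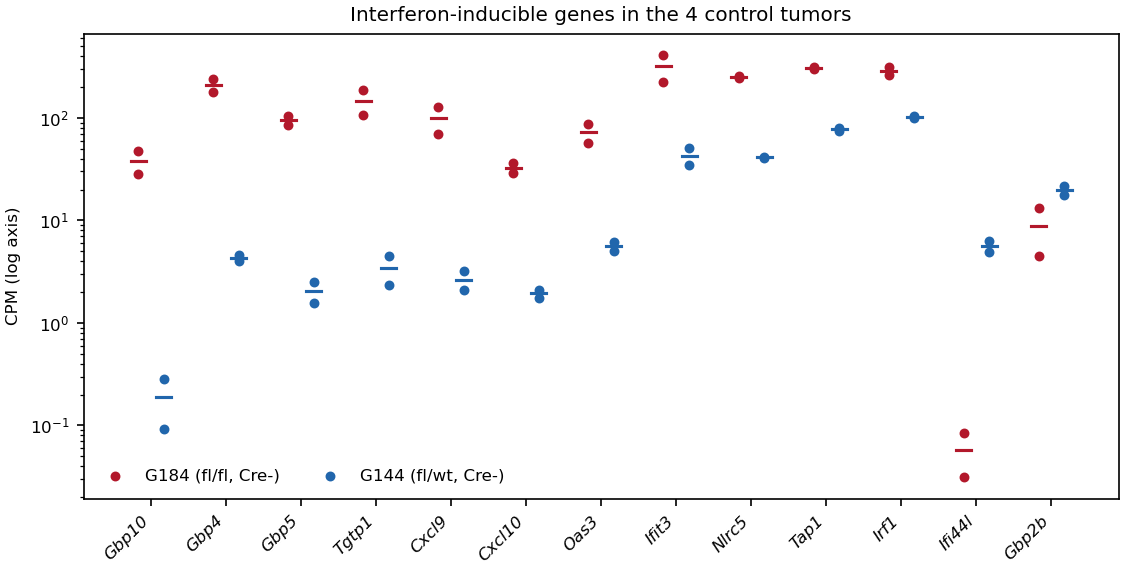
CPM (logarithmic axis) of 13 interferon-inducible genes in each control tumor, with G184 in red at the left of each pair and G144 in blue at the right; points are tumors and lines are means of the 2 tumors of a mouse. In 11 genes both G184 tumors lie above both G144 tumors, while Ifi44l and Gbp2b lie below.

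Start-site regions of interferon genes are shown because the members moved together. They are RefSeq sequences of GRCm38.p6, from 250 bases before to 50 bases after each gene start, and both strands were searched for AAANNGAAA, the core of the interferon-stimulated response element (ISRE), and TTCNNNGAA, the core of the gamma-activated site (GAS). Of the called genes of the 3 interferon lists with the largest changes, Cxcl11, Gbp10, Gbp4, Gbp11 and some others were passed over because the table held no entry for them. Capitals mark matches to either core, on the strand printed or as the reverse complement.
Gbp5 (chr3:142496684-142496983, plus strand): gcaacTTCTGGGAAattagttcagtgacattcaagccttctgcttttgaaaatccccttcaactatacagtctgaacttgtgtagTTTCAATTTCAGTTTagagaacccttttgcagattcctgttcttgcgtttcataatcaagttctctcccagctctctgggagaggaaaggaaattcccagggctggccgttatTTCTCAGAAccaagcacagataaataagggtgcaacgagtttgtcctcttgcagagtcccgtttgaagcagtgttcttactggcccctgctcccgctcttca
Tgtp1 (chr11:48992197-48992496, minus strand): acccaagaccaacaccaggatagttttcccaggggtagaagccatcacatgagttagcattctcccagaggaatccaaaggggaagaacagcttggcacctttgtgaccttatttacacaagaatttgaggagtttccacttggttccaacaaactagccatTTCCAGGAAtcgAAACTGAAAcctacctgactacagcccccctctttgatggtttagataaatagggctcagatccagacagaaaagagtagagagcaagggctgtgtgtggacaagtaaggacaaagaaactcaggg
Cxcl10 (chr5:92348840-92349139, minus strand): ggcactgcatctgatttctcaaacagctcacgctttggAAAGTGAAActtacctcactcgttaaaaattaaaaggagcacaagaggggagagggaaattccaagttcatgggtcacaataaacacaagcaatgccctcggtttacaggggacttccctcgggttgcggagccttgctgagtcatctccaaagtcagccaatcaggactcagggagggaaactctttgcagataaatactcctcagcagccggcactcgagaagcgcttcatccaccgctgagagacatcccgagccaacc
Ifi44l (chr3:151762842-151763141, minus strand): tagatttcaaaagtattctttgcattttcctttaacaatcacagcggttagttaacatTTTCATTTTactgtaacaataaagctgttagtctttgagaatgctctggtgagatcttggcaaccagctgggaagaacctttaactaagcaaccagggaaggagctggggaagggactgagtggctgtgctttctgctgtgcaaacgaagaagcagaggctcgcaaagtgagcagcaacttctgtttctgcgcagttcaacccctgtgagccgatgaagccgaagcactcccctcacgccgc
The Gbp5 region held 2 ISRE and 2 GAS cores, that of Tgtp1 held 1 of each, and those of Cxcl10 and Ifi44l held 1 ISRE core and no GAS core. No match to either core was found in the region of Cxcl9, and that of Tgtp2 held 2 ISRE cores and 1 GAS core. Of the 68 members of the 3 lists that were higher in G184, 42 had a region in the table. An ISRE core was found in 32 of these (76.2%) and in 10.6% of all 32851 regions, and a GAS core in 13 (31%) and in 8.3% of all regions. The lists were made up of genes that interferons induce, so these shares describe the lists and not the difference between the mice. A match is a stretch of letters and was not tested for binding, and the region of Ifi44l, the gene that was lower, held the ISRE core too.

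Interferon genes themselves were hardly counted in these tumors. Ifng was listed with 38 and 29 counts in G184, against 3 and 1 counts in G144. Over both tumors the ratio was 15.3 (95% exact interval 5.70 to 57.7, which covers counting error only), with an adjusted p of 0.0239 from edgeR. The call was lost without any 1 of the 4 tumors (adjusted p from 0.0784 to 0.120). The other 4 ligand genes on the list, Ifnb1, Ifna4, Ifnk and Ifnl3, did not pass the filter on low counts. Receptors and their kinases differed less, with 2 of 9 called higher and a median log2 fold change of 0.30. Among sensors of nucleic acids, 4 of 8 were higher, and these included the endosomal receptor Tlr9, at 7.28 and 10.04 CPM in G184 and 1.74 and 2.08 CPM in G144 (log2 2.18, standard error 0.23, adjusted p = 0.0044). The DNA sensor Aim2 had 8.30 and 8.16 CPM in G184, against 2.74 and 3.98 CPM in G144 (log2 1.29, standard error 0.22, adjusted p = 0.0152).

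Many genes of antigen presentation had more RNA in G184, for MHC class I and for class II. Of 21 genes of MHC class I presentation, 18 were higher in G184 and none lower, and the 10 genes of peptide supply all passed. Nlrc5, the transactivator of class I genes, had 244 and 257 CPM in G184, against 41.0 and 41.3 CPM in G144 (log2 2.61, standard error 0.27, adjusted p = 0.00363). Tap1, which carries peptides into the endoplasmic reticulum, had 299 and 317 CPM in G184, against 75.0 and 80.3 CPM in G144 (log2 1.99, standard error 0.17, adjusted p = 0.00237). The classical heavy chains H2-K1 and H2-D1 and the secreted H2-Q10 did not pass, and since the H2 genes are close copies of each other the division of reads among them is uncertain. Without tumor 6 of G144 the count of the list was 4, without tumor 9 of G184 it was 7, and without tumor 8 of G144 it was 9.

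Of 12 tested MHC class II genes, 7 were higher. H2-Aa, a class II chain of antigen-presenting cells, had 416 and 523 CPM in G184, against 152 and 145 CPM in G144 (log2 1.66, standard error 0.14, adjusted p = 0.00212). Cd74, the invariant chain, had 659 and 823 CPM in G184, against 227 and 225 CPM in G144 (log2 1.72, standard error 0.13, adjusted p = 0.00185). In the fits without 1 tumor, 6 or 7 class II genes were called.

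Markers of several immune cell types moved with the interferon genes. In bulk tumors, more cells of a type and more RNA per cell cannot be told apart. Of 21 T cell genes 12 were higher in G184, and the levels of the list summed to 74.7 and 63.3 CPM in G184, against 39.1 and 42.8 CPM in G144. Cd3e, a chain of the T cell receptor complex, had 2.98 and 2.60 CPM in G184, against 0.853 and 0.861 CPM in G144 (log2 1.70, standard error 0.24, adjusted p = 0.00974). Of 12 genes of NK and cytotoxic cells 7 were higher, led by the activating receptor Klrk1 with 8.27 and 8.31 CPM in G184 and 1.37 and 1.42 CPM in G144 (log2 2.57, standard error 0.24, adjusted p = 0.00275). The granule protease Gzmb had 10.2 and 8.92 CPM in G184, against 3.09 and 2.80 CPM in G144 (log2 1.70, standard error 0.23, adjusted p = 0.00855). All 12 genes of this NK list had higher values in both G184 tumors than in either G144 tumor. Over all genes tested, the tumors of the mice did not overlap, upward or downward, in 61.4%.

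Genes of macrophages were higher in 11 of 18 cases, at smaller differences (median log2 fold change 0.96). Fcgr1, a receptor for antibodies that interferon-gamma induces, had 18.4 and 28.1 CPM in G184, against 6.11 and 7.78 CPM in G144 (log2 1.74, standard error 0.27, adjusted p = 0.0122). Of 10 dendritic cell genes 5 were higher, among them Clec9a, a receptor of cross-presenting dendritic cells, at 4.43 and 4.57 CPM in G184 and 0.548 and 0.627 CPM in G144 (log2 2.93, standard error 0.25, adjusted p = 0.0023). B cell surface genes passed in 0 of 7 cases, although 6 of the 7 had positive log2 fold changes (median 1.59). Their counts were low, and the markers Ms4a1 and Cd79a lay under 1 CPM in all 4 tumors. The 8 listed genes summed to 4.61 and 3.78 CPM in G184, against 0.945 and 1.69 CPM in G144. Of 15 plasma cell and immunoglobulin constant genes 2 were called higher (13.3%, against 6.17% of all genes tested). The log2 fold change was positive in 12 and negative in 3 of them (median 0.90). Ighm, the constant gene of IgM, was higher (28.2 and 26.1 CPM in G184, 7.01 and 8.01 CPM in G144, adjusted p = 0.0135). Summed over these 15 genes, the levels were lower in G184, at 1188 and 799 CPM, against 1554 and 1465 CPM in G144. Such a sum follows its most abundant members. In the G174 tumors it was 1398 and 1216 CPM, although Ighm had only 2.21 and 3.45 CPM there. Among 11 tested neutrophil genes, only Csf3r, the receptor for G-CSF, was called higher (7.17 and 8.44 CPM in G184, 3.31 and 3.01 CPM in G144, adjusted p = 0.0182). That is 9.09% of the list, against 6.17% of all genes tested, and 4 of the 11 had negative log2 fold changes. These immune counts depended on single tumors: without tumor 6 of G144, 0 T cell, 0 macrophage and 1 NK gene were called, and without tumor 9 of G184, 3, 0 and 2 were.

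Few genes of the epithelium and stroma were called. The tumors carried the luminal markers Epcam, Krt8 and Krt18 in all 4 tumors, at 735 CPM or more, and of 18 luminal genes Kit was higher and Cldn4 lower. Kit, the receptor of stem cell factor and a marker of luminal progenitors, had 673 and 962 CPM in G184, against 264 and 356 CPM in G144 (log2 1.40, standard error 0.23, adjusted p = 0.0149). Cldn4, a claudin of tight junctions, had 84.9 and 92.5 CPM in G184, against 166 and 141 CPM in G144 (log2 -0.79, standard error 0.12, adjusted p = 0.0124). None of 12 basal, 16 keratinizing, 13 milk, 13 collagen and 16 endothelial genes passed. Basal markers were unequal between the tumors of G184, with Krt14 at 40.9 and 101.4 CPM in tumors 6 and 9, against 15.6 and 24.9 CPM in G144. Of 14 fibroblast and other matrix genes 2 were called, both higher in G184 (14.3%, against 6.17% of all genes tested). The matrix gene Dcn was higher (116 and 211 CPM in G184, 59.5 and 68.0 CPM in G144, log2 1.36, standard error 0.30, adjusted p = 0.0307), as was the fibroblast receptor Pdgfra (47.1 and 43.9 CPM in G184, 28.2 and 25.9 CPM in G144, log2 0.75, standard error 0.11, adjusted p = 0.0121). Both calls were lost without tumor 9 of G184, tumor 6 of G144 or tumor 8 of G144, and the log2 fold change of Dcn was 0.88 without tumor 9 of G184. Of 10 EMT factors 2 passed, Zeb2 and Zeb1, both higher in G184 (20%, against 6.17% of all genes tested). Zeb2 had 72.7 and 73.7 CPM in G184, against 27.2 and 38.1 CPM in G144 (log2 1.17, standard error 0.16, adjusted p = 0.00904). Over the fits that left out 1 tumor, the log2 fold changes ranged from 1.14 to 1.63 for Kit and from -0.90 to -0.68 for Cldn4. They ranged from 0.94 to 1.43 for Zeb2 and from 0.63 to 1.13 for Zeb1. Kit, Cldn4, Zeb2 and Zeb1 did not pass at a fold change of at least 1.5. The Zeb1 call was also lost in the fit of the 4 control tumors alone.

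Of 12 adipocyte genes 2 were called higher (16.7%, against 6.17% of all genes tested), and all 12 had a positive log2 fold change (median 0.92). Their levels summed to 247.2 and 208.3 CPM in G184, against 146.5 and 160.8 CPM in G144. Lpl, which encodes lipoprotein lipase, had 38.0 and 41.3 CPM in G184, against 12.6 and 18.1 CPM in G144 (log2 1.37, standard error 0.34, adjusted p = 0.0449). Pparg, the transcription factor of fat cell differentiation, had 3.53 and 3.96 CPM in G184, against 1.75 and 2.38 CPM in G144 (log2 0.86, standard error 0.22, adjusted p = 0.0456). Both calls were lost without any 1 of the 4 tumors. The part of fat tissue in the other results was not tested.

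Skeletal muscle genes had the lowest median of any list (log2 -5.35), but 0 of 12 passed and a single tumor set the values. Summed over the list, G184 had 13.0 and 12.1 CPM in tumors 6 and 9, against 13.1 CPM in tumor 6 of G144 and 304.6 CPM in tumor 8 of G144. Acta1, the actin of muscle fibers, had 0.480 and 0.326 CPM in G184, against 0.503 and 75.8 CPM in G144 (adjusted p = 0.166).

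**Figure D3:**
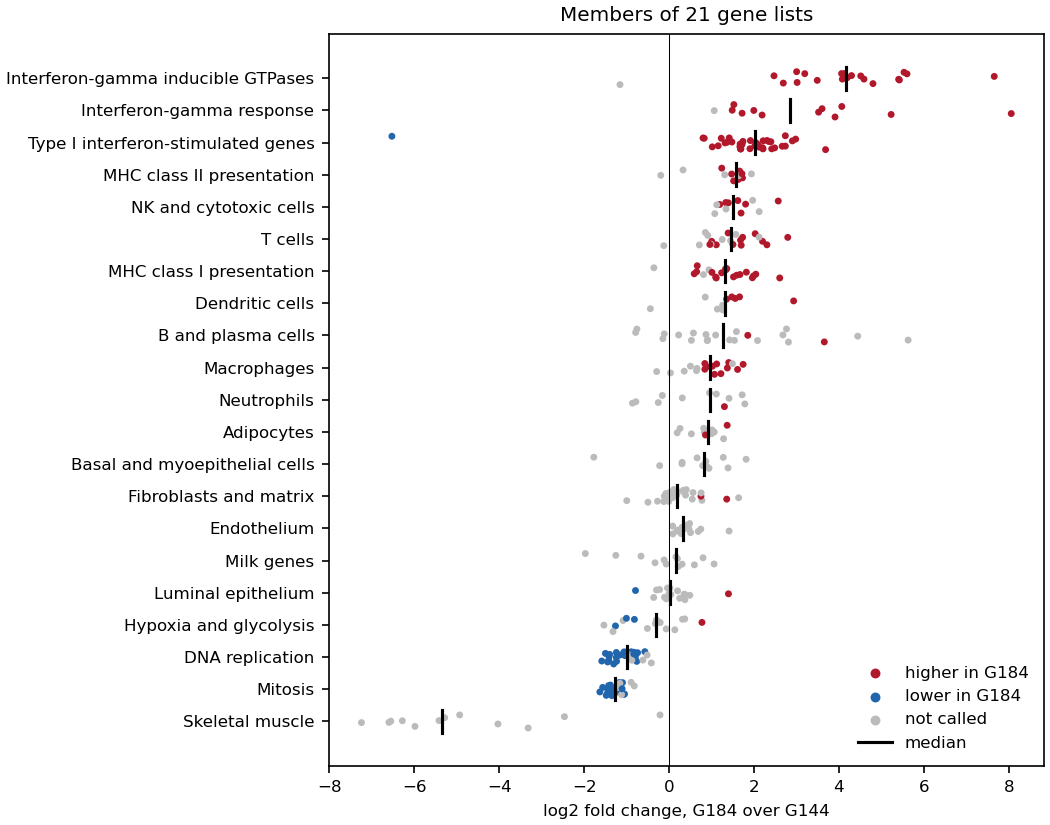
The log2 fold change of G184 over G144 for the tested members of 21 gene lists, one point per gene, red where called higher, blue where called lower and grey where not called, with a black line at each median. Interferon lists lie to the right, with medians from 2.02 to 4.17, DNA replication and mitosis to the left, with medians of -0.98 and -1.26, and Ifi44l is the blue point among the type I interferon genes.

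Cell division genes were lower in G184. Of 28 mitosis genes 23 fell and none rose, and all 28 were lower in both G184 tumors than in either G144 tumor. For scale, the tumors of the mice did not overlap, upward or downward, in 61.4% of all genes tested. Summed over the list, the levels were 1355 and 745.3 CPM in G184 tumors 6 and 9, against 2215 and 2695 CPM in G144 tumors 6 and 8. Birc5, the survivin subunit of the chromosomal passenger complex, had 23.9 and 12.6 CPM in G184, against 50.5 and 62.5 CPM in G144 (log2 -1.63, standard error 0.31, adjusted p = 0.0223). Ndc80, which ties kinetochores to microtubules, had 16.1 and 9.04 CPM in G184, against 34.8 and 39.6 CPM in G144 (log2 -1.56, standard error 0.28, adjusted p = 0.0186). Cdk1, the kinase that starts mitosis, had 35.4 and 20.6 CPM in G184, against 64.6 and 87.4 CPM in G144 (log2 -1.44, standard error 0.28, adjusted p = 0.0233). Tumor 9 of G184 was the lowest of the 4 tumors in each of these genes. Without tumor 9 of G184 no mitosis gene was called (0 of 28), without tumor 6 or tumor 8 of G144 it was 1 gene each, and without tumor 6 of G184 it was 27.

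Among 28 genes of DNA replication, 23 fell as well (median log2 fold change -0.98). Uhrf1, which brings the maintenance methyltransferase to replicated DNA, had 48.0 and 33.1 CPM in G184, against 122 and 121 CPM in G144 (log2 -1.58, standard error 0.17, adjusted p = 0.00444). Mcm5, a subunit of the replicative helicase, had 44.0 and 34.7 CPM in G184, against 117 and 93.4 CPM in G144 (log2 -1.42, standard error 0.18, adjusted p = 0.00721). The list was called in 21 members without tumor 6 of G184, in 12 without tumor 8 of G144, in 4 without tumor 9 of G184 and in 3 without tumor 6 of G144. In the hypoxia and glycolysis list 3 of 16 genes fell (18.8%, against 6.4% of all genes tested) and 1 rose. Egln3, a prolyl hydroxylase that hypoxia induces, had 74.6 and 68.9 CPM in G184, against 191 and 152 CPM in G144 (log2 -1.26, standard error 0.19, adjusted p = 0.0115). The glycolytic enzyme Eno1 had 369 and 340 CPM in G184, against 612 and 637 CPM in G144 (log2 -0.82, standard error 0.11, adjusted p = 0.00796).

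The WAVE and ABI genes, whose products form the actin regulatory complex in which Abi1 acts, mostly did not pass between the mice. Of 14 genes 3 were higher (21.4%, against 6.17% of all genes tested) and none lower. The 3 encode forms found in blood cells or neurons. Nckap1l, the form of NCKAP1 in hematopoietic cells, had 59.5 and 73.7 CPM in G184, against 25.0 and 30.5 CPM in G144 (log2 1.26, standard error 0.15, adjusted p = 0.00649). Rac2, the Rac GTPase of hematopoietic cells, had 12.5 and 12.5 CPM in G184, against 4.48 and 5.29 CPM in G144 (log2 1.36, standard error 0.22, adjusted p = 0.0141). Cyfip2, a Rac-binding subunit prominent in neurons and lymphocytes, had 11.5 and 12.7 CPM in G184, against 4.10 and 3.84 CPM in G144 (log2 1.61, standard error 0.20, adjusted p = 0.00692). None of these passed once tumor 6 of G144 was left out, at adjusted p of 0.0626 for Nckap1l, 0.0662 for Cyfip2 and 0.101 for Rac2, which was also lost without tumor 9 of G184 (0.0783) or tumor 8 of G144 (0.0502). The broadly expressed partners gave log2 fold changes of 0.00 for Nckap1, -0.04 for Brk1, -0.03 for Rac1, 0.27 for Cyfip1 and 0.54 for Wasf2 (adjusted p = 0.0514 for Wasf2 and 0.201 or more for the other 4). Abi2 gave -0.24 (adjusted p = 0.184), Abi3, a paralog found in immune cells, gave 0.96 (adjusted p = 0.0832), and Wasf3 gave -1.55 (adjusted p = 0.110).

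Beyond the lists, the gene with the largest increase among those at a mean of 5 CPM or more was Ifi202b, a member of the interferon-inducible HIN-200 family of DNA-binding proteins on chromosome 1. It had 36.2 and 67.9 CPM in G184, against 0.0305 and 0.125 CPM in G144 (log2 9.40, standard error 0.60, adjusted p = 0.00101). The gene was nearly silent in the Cre-positive mice too, at 0.0457 and 0.105 CPM in G174 and 0.229 and 0.289 CPM in G164. Ubd, which encodes the ubiquitin-like modifier FAT10, had 30.8 and 29.9 CPM in G184, against 0.670 and 1.15 CPM in G144 (log2 5.06, standard error 0.48, adjusted p = 0.00303). Xkr6, which belongs to the XK family of membrane proteins, was among the 12 largest increases too. It had 27.1 and 22.2 CPM in G184, against 0.640 and 1.06 CPM in G144 (log2 4.86, standard error 0.84, adjusted p = 0.0169), and stood at 21.5 and 24.4 CPM in G164 but at 0.823 and 5.74 CPM in G174.

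Among the 12 protein-coding genes with the largest decreases at a mean of at least 5 CPM, several differed between the tumors of G144. Bpifb5, of a family of secreted lipid-binding proteins, had 3.03 and 1.03 CPM in G184, against 123 and 25.3 CPM in G144 (log2 -5.18, standard error 1.05, adjusted p = 0.0252). Of 8 tested genes of this family 2 were called lower, while 5 had positive values that did not pass (median of the 8 genes 1.62). A2m, a plasma protease inhibitor, had 4.78 and 2.30 CPM in G184, against 86.7 and 23.4 CPM in G144 (log2 -3.95, standard error 0.81, adjusted p = 0.0266). Ahsg, which encodes the plasma protein fetuin-A, had 0.451 and 0.171 CPM in G184, against 21.9 and 4.77 CPM in G144 (log2 -5.40, standard error 0.90, adjusted p = 0.0152). In all 3 of these genes tumor 6 of G144 was the highest, and without it none passed, at log2 -3.64 for Bpifb5, -2.72 for A2m and -3.92 for Ahsg. The 3 calls were also lost without tumor 9 of G184, and those of Bpifb5 and A2m without tumor 6 of G184. Areg, a ligand of the EGF receptor that acts in mammary duct growth, had 0.931 and 0.575 CPM in G184, against 8.11 and 16.4 CPM in G144 (log2 -4.02, standard error 0.47, adjusted p = 0.0058). Tenm3, a transmembrane teneurin, had 4.37 and 2.61 CPM in G184, against 53.8 and 39.7 CPM in G144 (log2 -3.74, standard error 0.55, adjusted p = 0.0113). Wif1, a secreted Wnt inhibitor, had 4.53 and 2.28 CPM in G184, against 47.9 and 32.7 CPM in G144 (log2 -3.56, standard error 0.75, adjusted p = 0.0279). The call of Areg was lost without tumor 9 of G184, that of Tenm3 without it or tumor 6 of G144, and that of Wif1 without any 1 of the 4 tumors. The others were Gm7298, Bpifb1, Comp, Nipal4, Arsi and Fbp1, with log2 fold changes from -2.73 to -5.09.

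Some genes were counted in 1 control mouse only. By the limits of at least 20 counts in both tumors of one mouse and at most 3 counts in each tumor of the other, 13 genes were detected in G184 alone and 13 in G144 alone. Beside Cxcl11 and Ifng, those of G184 included Ccnb1ip1, a ubiquitin ligase of meiotic crossing over, with 28 and 38 counts in G184 and 0 and 1 in G144. It had 1 and 0 counts in G174 but 27 and 42 in G164. Itln1, an intestinal lectin, had 25 counts in both G184 tumors and 0 in each of the other 6 tumors, which is at least 7.56-fold higher than a floor of 3 counts per tumor of G144. The pseudogene Gm9259 had 34 and 25 counts in G184 and 0 in both G144 tumors, and it followed the fl/fl mice, with 35 and 27 counts in G174 and 0 in both G164 tumors.

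In G144 alone, the most abundant was the noncoding Gm43305, with 2 and 1 counts in G184, against 2833 and 2875 in G144. Its tumors of G174 differed, at 101 and 2549 counts, and those of G164 had 20 and 97. The antisense transcript AC165951.1 had 1 and 0 counts in G184 and 674 and 396 in G144, and between 407 and 678 in the 4 Cre-positive tumors, whereas G184 had at most 1. The pseudogene Gm8210 had 0 and 1 counts in G184, against 395 and 351 in G144, and was at 1 and 0 in G174 and 213 and 251 in G164. The protein-coding Gm12666 had 1 and 0 counts in G184, against 99 and 76 in G144, with 82 and 83 in G174 and 1 and 0 in G164. Gm9008 had 1 and 0 counts in G184, against 135 and 110 in G144, with 1 and 0 in G174 and 82 and 133 in G164. Rec8, a cohesin subunit of meiosis, had 2 and 1 counts in G184, against 63 and 142 in G144, and between 8 and 80 in the Cre-positive tumors.

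Genes around Abi1 on chromosome 2 were called in shares on either side of that elsewhere, depending on the window. Within 5 Mb to each side of Abi1, 149 genes were tested, of which 6 were higher and 10 lower in G184. That is 10.7%, against 12.6% of the 22038 genes tested elsewhere. Within 2 Mb it was 6 of 38 genes (15.8%), and within 10 Mb it was 30 of 301 (9.97%). The called genes nearest to Abi1 were Apbb1ip and Mastl. Apbb1ip, an adaptor of integrin activation in blood cells, had 10.2 and 10.2 CPM in G184, against 3.84 and 4.37 CPM in G144 (log2 1.31, standard error 0.26, adjusted p = 0.0241). Mastl, a kinase needed to enter mitosis, had 12.6 and 7.55 CPM in G184, against 19.7 and 23.8 CPM in G144 (log2 -1.11, standard error 0.27, adjusted p = 0.0404). Neither gene passed at a fold change of at least 1.5. The Mastl call was also lost with library size scaling and in the fit of the 4 control tumors alone. Over the fits that left out 1 tumor, the log2 fold changes ranged from 1.22 to 1.41 for Apbb1ip and from -1.54 to -0.77 for Mastl. The largest difference in the window was that of Slc2a6, a lysosomal hexose transporter, with 9.89 and 8.86 CPM in G184 and 1.69 and 1.52 CPM in G144 (log2 2.54, standard error 0.22, adjusted p = 0.00254). It stood between 1.70 and 2.21 CPM in the 4 Cre-positive tumors. The other called genes were Pip4k2a, Etl4, Arrdc1 and Inpp5e, which were higher, and Gm13331, Gm13410, Mrpl41, Sapcd2, Clic3, Edf1, Ajm1, Qsox2 and Rpl7a, which were lower, with log2 fold changes from -2.34 to 0.64. The pseudogene Gm13410, singled out after its values were seen, was low in both fl/fl mice. It had 0.282 and 0.233 CPM in G184 and 0.229 and 0.226 CPM in G174. The fl/wt tumors had 1.23 and 1.40 CPM in G144 and 1.56 and 1.35 CPM in G164. Pip4k2a changed in opposite directions in the 2 pairs (log2 0.64 in G184 over G144 and -0.58 in G174 over G164).

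Whole chromosomes differed by small amounts. The median log2 fold change was -0.22 over 1056 genes of chromosome 17 and -0.20 over 1617 genes of chromosome 11, and 15.9% and 12.8% of these genes were called lower. Both tumors of G184 were below the mean of G144 on these chromosomes, by -0.15 and -0.17 on chromosome 17 and by -0.12 and -0.21 on chromosome 11. Chromosome 1 had the highest median (0.14). On chromosome 8 the fitted median was -0.18, but the tumors of G144 differed from each other by 0.30, and against tumor 8 of G144 the G184 mean was 0.01. Chromosome 7 also differed within mice, by 0.16 between tumors 6 and 9 of G184 and by -0.24 between tumors 6 and 8 of G144. For the same pairs, chromosome 11 differed by 0.13 in G184 and 0.10 in G144, and chromosome 17 by 0.02 and 0.11. The medians of the other chromosomes lay between -0.01 and 0.13.

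**Figure D4:**
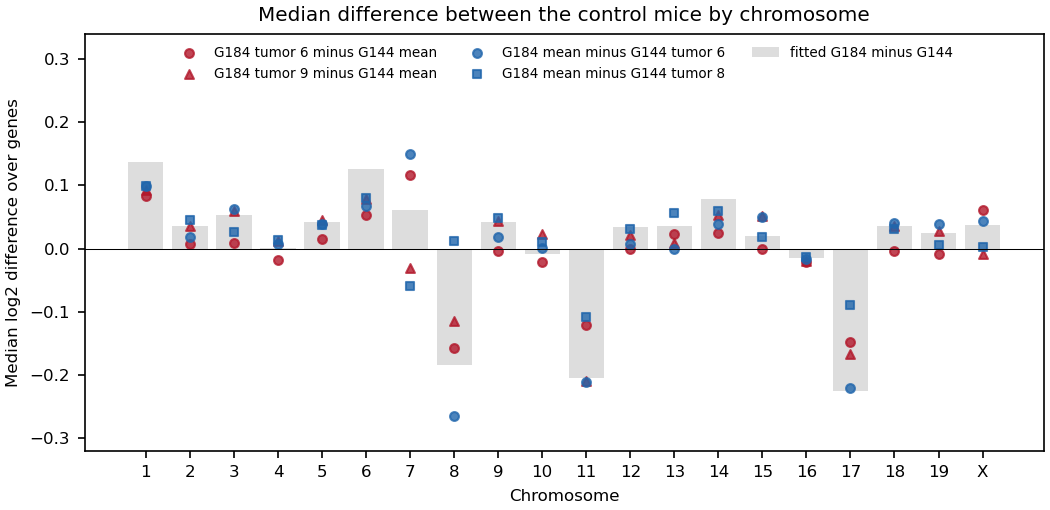
Median log2 difference over the tested genes of each chromosome. Grey bars are the fitted difference G184 minus G144, red points compare each G184 tumor with the mean of G144, and blue points compare the mean of G184 with each G144 tumor, on the log2(CPM + 0.5) scale. On chromosomes 11 and 17 all 4 points lie below 0, whereas on chromosomes 7 and 8 they lie on both sides.

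The same floxed genotypes were compared in the Cre-positive mice, where Cre acts on the floxed Abi1 of both mice and no tumor is shared with the controls. Unlike in the controls, Abi1 itself differed here. It had 8.93 and 6.47 CPM in G174, against 63.1 and 66.7 CPM in G164 (log2 -3.08, standard error 0.17, adjusted p = 0.000806 from edgeR). This pair therefore also sets the loss of 2 Abi1 copies against the loss of 1. In G174 over G164, 398 genes were higher and 1178 lower, which is 7.1% of the genes tested. By the study's records the order of ages is turned round here, since G174 was of the age of G144 and G164 was older. Of the genes called between the controls 782 were called between the Cre-positive mice too, which is 28.1% of the control calls and 49.6% of the Cre-positive calls. Of these 782 genes, 750 had opposite signs in the 2 comparisons and 32 the same sign. The difference between the 2 comparisons passed in 2551 of the 2787 genes called between the controls (91.5%), against 25.1% of all genes tested. Both comparisons were fitted together and share an estimate of the spread. The difference between them takes in the control contrast by which the 2787 genes were called.

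By list, the interferon-gamma GTPases were called higher in 19 and lower in 0 of 20 genes between the controls, and higher in 0 and lower in 8 between the Cre-positive mice. The T cell list had 12 higher and 0 lower of 21 between the controls, and 0 higher and 18 lower between the Cre-positive mice. Gbp5 gave a log2 fold change of 5.53 in G184 over G144 and of -2.41 in G174 over G164 (adjusted p = 0.0139). For mitosis the medians were -1.26 between the controls and 0.28 between the Cre-positive mice, with 23 and 0 of 28 genes called. In skeletal muscle both medians were negative, at -5.35 and -6.34, and 1 tumor of each fl/wt mouse carried the signal.

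**Figure D5:**
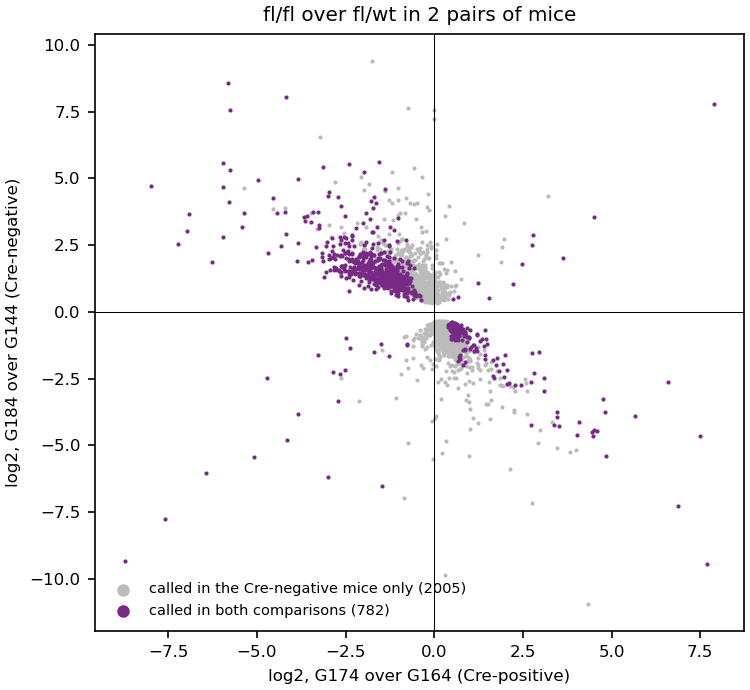
The log2 fold change of G184 over G144 (vertical axis, Cre-negative mice) against that of G174 over G164 (horizontal axis, Cre-positive mice) for the 2787 genes called between the controls, with the 782 genes called in both comparisons in purple and the others in grey. Most purple points lie at the upper left and lower right, where the signs are opposite (750 of 782).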

How the data were processed

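The authors called bases with bcl2fastq and aligned the paired reads with STAR to GRCm38/mm10. They deposited raw counts per gene for every lane and run, with unstranded, forward-strand and reverse-strand columns, and a table of counts summed per mouse. The sources used here name neither tool versions nor the annotation release. At all 55381 genes of the deposited table, its values equal unstranded counts added up over the lanes of a mouse. The libraries are stranded, so reverse-strand counts were used and summed over 4 lanes and 2 runs per tumor, which were not taken as replicates. Reads in no gene, unmapped, ambiguous and multimapped reads stayed out of library sizes and tests. Names, types and places come from GENCODE M21, in which 54487 of 55385 identifiers were found with their version and 657 with another, while the authors' table named 241.

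The filterByExpr function of edgeR 4.0.16 in R 4.3.3 kept 22187 genes and 99.96% of counts. After TMM scaling, the quasi-likelihood model took in the 8 tumors with the mouse as group, and a Benjamini-Hochberg adjusted p under 0.05 was called. Tumors of a mouse had a common coefficient of variation of 0.229, with 4 residual and 3.06 prior degrees of freedom. With 2 tumors against 2, an exact permutation test of a single gene could not reach the threshold, so none was run. Python 3.11.15 and pandas 2.3.3 were used for the tables, and scipy for exact intervals.

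The mice compared and the 26 gene lists were chosen with earlier results of these data known. Named are up to 4 called members per list with the largest change and a mean of at least 1 CPM, or else the most abundant member, all WAVE and ABI genes, the 12 protein-coding genes with the largest change in each direction at a mean of at least 5 CPM, genes detected in 1 mouse only and called genes within 5 Mb of Abi1. Where others are named, the text says so. Some genes that the rule would name are not reported here. The alternatives were the test or only the size factors of DESeq2 1.42.0, library size scaling, each run by itself, unstranded counts, no filter, a fit of the 4 control tumors alone, a fold change of at least 1.5, leaving out each tumor, count limits of 10 and 50, windows of 2 and 10 Mb, and chromosome medians over genes of at least 5 CPM.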

Additional observations from a re-analysis of the deposited data

Results flagged for a closer look

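The fl/fl minus fl/wt difference was tested between the Cre-negative and the Cre-positive pair of mice, and 9 leading list members passed with the quasi-likelihood test of edgeR. Each value is the log2 difference (G184 minus G144) minus (G174 minus G164). Interferon-inducible genes gave 8.40 for Gbp10 (standard error 0.98, adjusted p = 0.00293), 12.25 for Cxcl11 (standard error 0.91, adjusted p = 0.000854) and 2.95 for Nlrc5 (standard error 0.36, adjusted p = 0.00338). Cxcl11 had 1 count in each G144 tumor, so its fitted value depends on the prior count and is no bound. Ifi44l gave -5.06 (standard error 0.55, adjusted p = 0.00253), and its log2 fold change was negative in both pairs, at -6.53 in the Cre-negative and -1.47 in the Cre-positive mice. Immune genes gave 4.95 for Cd6 (standard error 0.42, adjusted p = 0.00124) and 3.00 for Fcgr1 (standard error 0.38, adjusted p = 0.00357). The WAVE complex gene Cyfip2 gave 3.11 (standard error 0.28, adjusted p = 0.00157). Cell division genes gave -2.13 for Birc5 (standard error 0.44, adjusted p = 0.0162) and -2.25 for Uhrf1 (standard error 0.24, adjusted p = 0.00236). These members were chosen for their change between the control mice, which is a part of the difference tested. The Cre-positive pair also differed in Abi1 itself (log2 fold change -3.08, against -0.03 in the Cre-negative pair).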

How the results depend on the processing

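Counts of calls moved with the tumor left out and with several other choices. Genes higher in G184 ranged from 125 to 996 and genes lower from 80 to 822 over the 4 fits that each left out 1 tumor. Members called ranged from 12 to 19 for the interferon-gamma GTPases, 10 to 11 for the interferon-gamma response, 6 to 35 for type I interferon genes called higher, 0 to 5 for ligands, receptors and sensors, 4 to 14 for MHC class I and 6 to 7 for MHC class II. They ranged from 0 to 5 for T cells, 1 to 2 for NK cells, 0 to 10 for macrophages, 0 to 27 for mitosis and 3 to 21 for DNA replication, and were 2 for dendritic cells each time. The Abi1 log2 fold change ranged from -0.15 to 0.09. DESeq2 called 2065 genes higher and 2406 lower, and the fit with no filter called 2071 and 2087. The fit of the 4 control tumors alone called 852 and 682 genes, 6 macrophage and 11 mitosis genes. A fold change of at least 1.5 left 336 higher and 140 lower, with 1 gene of ligands, receptors and sensors, 8 of MHC class I, 4 of T cells, 2 of NK cells, 2 of macrophages, 2 of dendritic cells, 1 of mitosis and 6 of DNA replication. No filter gave 11 NK and 9 dendritic cell genes, DESeq2 gave 8 dendritic cell genes and the second run alone gave 3. Genes detected in G184 alone numbered 54 at 10 counts and 3 at 50, and in G144 alone 27 and 8. Of 111 called genes followed over all fits, 27 were called in every fit in which they were tested, 84 lost the call in at least 1, of which 26 only without a tumor, and none changed sign. No paired analysis was possible because only 1 tumor number occurs in both mice.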

Other observations

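The gene groups in this part were chosen after their values were seen and are given as descriptions. Replication-dependent histone genes, whose mostly unpolyadenylated transcripts are kept in total RNA, were lower in G184 in 54 of 59 cases (median log2 fold change -1.49). Hist1h4d had 187.3 and 148.4 CPM in G184 tumors 6 and 9, against 371.8 and 396.7 CPM in G144 tumors 6 and 8. Cytosolic ribosomal protein genes were lower in 31 of 82 cases and higher in 0 (median -0.54), mitochondrial ribosomal protein genes in 39 of 77 and 0 (median -0.53), and nuclear genes of the respiratory chain in 48 of 96 and 0 (median -0.48). Mrpl12, of the mitochondrial ribosome, had 34.7 and 30.7 CPM in G184, against 67.8 and 78.3 CPM in G144 (log2 -1.16, adjusted p = 0.00721). The HIN-200 family on chromosome 1 was higher in 13 of 13 genes, with log2 fold changes from 1.29 for Aim2 to 9.40 for Ifi202b, and since its members are close copies the division of reads among them is uncertain. Of 10 apolipoprotein L genes 5 were higher, led by Apol6 (log2 4.30, adjusted p = 0.000408), and of 7 Schlafen genes 4 were.

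By annotated type, 100 of 1511 genes of the TEC class, whose transcripts await experimental proof, were higher in G184 (6.62%, against 6.17% of all genes tested) and 8 lower (0.529%, against 6.4%), with a median log2 fold change of 0.36. Sense intronic transcripts were higher in 13 (5.37%) and lower in 0 of 242 cases (median 0.37). Protein-coding genes were higher in 1083 (6.91%) and lower in 1274 (8.13%) of 15673 cases (median -0.02). The share of reads in no gene was 34.4% and 32.2% in G184, against 28.3% and 28.7% in G144, and its part in these values was not tested.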
